A study of Mus musculus with 10 samples.

Results

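The genes described here are 10 markers of the basal and myoepithelial layer of the mouse mammary gland, taken as a named list from the 55487 genes in the count tables. They are the transcription factors *Trp63* and *Snai2*, the contractile genes *Acta2*, *Actg2*, *Myh11*, *Mylk*, *Cnn1* and *Tagln*, and the receptors *Oxtr* and *Procr*. Each symbol matched a single gene ID, and all 10 genes passed the filter on low counts in both cell preparations. RNA was sequenced from 10 libraries of enriched mammary cells of 10-wk-old female BALB/c mice in diestrus. CebpbΔM mice carried *Csf1r*-Cre and 2 floxed *Cebpb* alleles, and the WT controls were their Cre-negative counterparts with the same floxed alleles. *Cebpb* encodes the transcription factor C/EBPβ, and the *Csf1r* promoter directs Cre to myeloid cells, and epithelial cells are not its target. Mammary epithelial cells (MECs) were enriched by depleting cells of other lineages, and their libraries were WT 1 and 3 and CebpbΔM 1 and 3. Macrophages were enriched with antibody to F4/80, and their libraries were WT 4 and 5 and CebpbΔM 4 to 7.

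The mammary duct has an inner luminal layer and an outer basal layer, most of whose cells are myoepithelial. Myoepithelial cells carry a smooth muscle contractile apparatus, and oxytocin from the pituitary makes them squeeze milk out of the alveoli during lactation. The same contractile genes are used by vascular smooth muscle cells and pericytes, and *Procr* is also a gene of endothelial cells, so of the 10 genes *Trp63* is the one most closely tied to basal epithelium.

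The total count was 25310926 to 27008166 in the MEC libraries and 16935000 to 20174722 in the macrophage libraries. No member had fewer than 60 counts in any library. Levels are CPM (counts scaled to a common library size) after TMM scaling over the 10 libraries. *Cebpb* itself was counted 25 and 28 times in the WT MECs and 69 and 42 times in the CebpbΔM MECs. In macrophages it was counted 13 and 15 times in WT 4 and 5, and 16, 13, 5 and 4 times in CebpbΔM 4 to 7. Its counts therefore did not separate the genotypes labelled on the macrophage libraries, and each direction between them rests on the labels. Even in WT macrophages it stood at only 0.652 and 0.714 CPM, and counts this low cannot test the deletion. The paper did not detect C/EBPβ protein in CebpbΔM macrophages grown from bone marrow, nor in CSF1R-positive cells of the gland. The list of 11 macrophage markers summed to 33.4 to 44.2 CPM in MECs and 8306 to 16042 CPM in macrophage libraries, and *Adgre1*, which encodes F4/80, was at 0 to 0.526 CPM in MECs and 176 to 367 CPM in macrophages. The macrophage libraries also held 7 luminal epithelial markers at a sum of 5136 to 9742 CPM, against 28940 to 36051 CPM in MECs. All 7 of those genes were detected in every macrophage library, with *Krt8* between 1539 and 3217 CPM. The 7 fibroblast markers summed to 5293 to 6461 CPM in MECs and 3286 to 7668 CPM in macrophage libraries. The plot of marker levels shows the macrophage and luminal sums beside those of basal keratins and of the vascular lists.

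**Figure D1:**
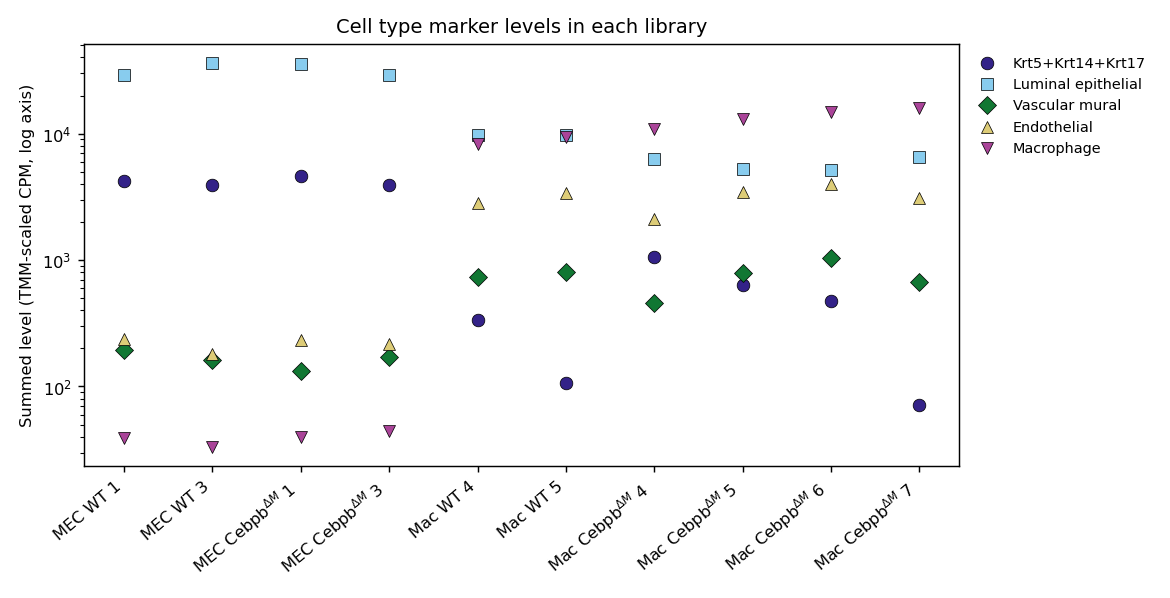
Summed level of the markers of each cell type (vertical log axis, TMM-scaled CPM) in each of the 10 libraries. Macrophage markers sat at 33.4 to 44.2 CPM in MECs, whereas *Krt5*, *Krt14* and *Krt17* together ranged from 71.6 to 1063 CPM over the 6 macrophage libraries.

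In WT MECs, the members ranked by RPKM (CPM divided by exon length in kilobases), the scale on which genes of different length can be compared, with *Acta2* first and *Trp63* last. *Acta2*, the gene of alpha smooth muscle actin, stood at 1119 ± 253 RPKM (SD, n = 2). *Tagln*, whose product binds actin filaments, was at 209 ± 22.2 RPKM and *Cnn1*, which encodes calponin, at 136 ± 7.48 RPKM. The ranges of these 3 genes and of *Actg2* (58.8 ± 36.3 RPKM) did not overlap with each other. *Myh11* (33.5 RPKM) overlapped *Actg2* before it but not *Oxtr*, its next neighbour. Of the genes after it, *Oxtr*, *Snai2*, *Procr* and *Mylk* lay between 13.2 and 24.5 RPKM on average, and each overlapped its neighbour in that order. *Trp63* was lowest at 3.78 ± 1.97 RPKM, and its 2 libraries lay below both libraries of *Mylk*, its neighbour. *Acta2* and *Tagln* led in that order in all 4 groups, whereas *Procr* moved from the eighth place in WT MECs to the third in both macrophage groups.

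The first question is whether the deletion in macrophages went with another level of basal genes in the epithelium. None of the 10 genes passed the test between CebpbΔM and WT MECs. In MECs edgeR's quasi-likelihood test called 0.051% of all 15698 genes tested at an adjusted *P* of 0.05 or less, and every member had an adjusted *P* of 0.9997. Unadjusted *P*-values of the members ran from 0.129 to 0.882, compared with 5.42% of all genes under 0.05, and the likelihood ratio test and DESeq2 also called 0 of the 10. Their log2 fold changes ran from −0.44 to 0.21 with a median of −0.16, against −0.0078 over all genes tested.

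*Trp63*, the master regulator of basal epithelial identity (chromosome 16, 25683763 to 25892102, GRCm38), was at 43.4 and 20.0 CPM in WT MECs and 17.2 and 28.5 CPM in CebpbΔM MECs. The replicates of WT differed more than the genotype means did, and the log2 fold change was −0.44 (SE 0.36). *Snai2*, a repressor linked to the basal and mesenchymal state (chromosome 16, 14705852 to 14709385), was at 59.3 and 31.7 CPM in WT and 45.5 and 36.4 CPM in CebpbΔM. Both CebpbΔM libraries fell between the WT libraries.

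*Acta2* (chromosome 19, 34241090 to 34255590) was at 2851 and 2065 CPM in WT MECs and 2453 and 1779 CPM in CebpbΔM MECs, a log2 fold change of −0.20 (SE 0.27). *Actg2*, the gamma actin of enteric smooth muscle (chromosome 6, 83512905 to 83536265), was at 132 and 51.6 CPM in WT and 124 and 82.1 CPM in CebpbΔM. In both genes each genotype had a higher and a lower library, and in both genotypes the higher was library 1. *Myh11*, the smooth muscle myosin heavy chain (chromosome 16, 14194535 to 14291372), was at 306 and 203 CPM in WT and 181 and 216 CPM in CebpbΔM. *Mylk*, the kinase that phosphorylates the myosin light chain and so starts contraction (chromosome 16, 34745210 to 35002420), was at 201 and 96.9 CPM in WT and 244 and 98.0 CPM in CebpbΔM. The library numbered 1 exceeded the library numbered 3 by over 2-fold in each genotype for *Mylk*, so its spread lay between libraries of 1 genotype.

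*Cnn1* (chromosome 9, 22099216 to 22109630), an actin-binding inhibitor of myosin activity, was at 388 and 359 CPM in WT MECs and 394 and 326 CPM in CebpbΔM MECs. With a log2 fold change of −0.03 (SE 0.21), it was the member with the smallest difference. *Tagln* (chromosome 9, 45929619 to 45936058) was at 447 and 385 CPM in WT and 377 and 476 CPM in CebpbΔM, and the genotypes overlapped. Of the exon bases of *Tagln*, 1349 of 1988 are shared with genes on the opposite strand (*Pcsk7* and *Gm48529*), and 772 of 11263 are so shared in *Mylk*. The authors counted by strand, and the level of either gene is uncertain as far as that counting could mix the strands.

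*Oxtr*, the oxytocin receptor (chromosome 6, 112473683 to 112489943), was the only member whose genotypes did not overlap in MECs. It was at 117 and 118 CPM in WT MECs and 87.2 and 96.4 CPM in CebpbΔM MECs. The log2 fold change was −0.33 (SE 0.20), and its unadjusted *P* was 0.129. Of all genes tested, 28.2% showed no overlap between the genotypes, so 1 of 10 members is below the background share. *Procr*, the protein C receptor and a marker of a mammary stem cell population (chromosome 2, 155751117 to 155755471), was at 37.7 and 25.9 CPM in WT and 29.3 and 25.1 CPM in CebpbΔM.

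Promoter sequences of 5 members, *Acta2*, *Mylk*, *Cnn1*, *Oxtr* and *Procr*, were found in the RefSeq table used (build GRCm38.p6). The 250 bases before each start were searched for the CArG box that serum response factor binds in smooth muscle genes, CC, then 6 bases that are A or T, then GG, with at most 1 departure, and for the E-box CAGGTG on either strand, which Snai2 can bind. Every match found in the 5 windows is shown. In the 30-base lines each match is in capitals, read on the gene's strand.
*Acta2* bases −84 to −75 before the start, chr19:34255438-34255467, minus strand: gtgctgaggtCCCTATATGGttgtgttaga
*Acta2* bases −34 to −25 before the start, chr19:34255388-34255417, minus strand: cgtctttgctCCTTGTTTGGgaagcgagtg
*Oxtr* bases −71 to −66 before the start, chr6:112489879-112489908, minus strand: tgctcccatagaCACCTGgactgagcgccg
Each of the *Acta2* matches departs from the box at 1 base. The *Oxtr* match is the E-box read on the opposite strand. All 3 lie inside the gene spans given above, which start farther upstream than the RefSeq entries. No match was found in the windows of *Mylk*, *Cnn1* or *Procr*. A CArG box with at most 1 departure stands in 18.6% of the 32851 promoters of the same length, and CAGGTG in 17.2%, so such letters are common in these windows.

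Basal transcripts were present in every macrophage library, and some varied far more than others. Between the highest and the lowest of the 6 libraries *Trp63* differed 18.4-fold, *Cnn1* 11-fold, *Oxtr* 5.83-fold and *Actg2* 5.6-fold, whereas *Tagln*, *Procr* and *Mylk* differed 1.91-fold to 2.02-fold. The basal keratins *Krt5*, *Krt14* and *Krt17* varied 21.7-fold, 16.7-fold and 9.66-fold. In bulk RNA, fewer cells of a type and less RNA per cell cannot be told apart.

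**Figure D2:**
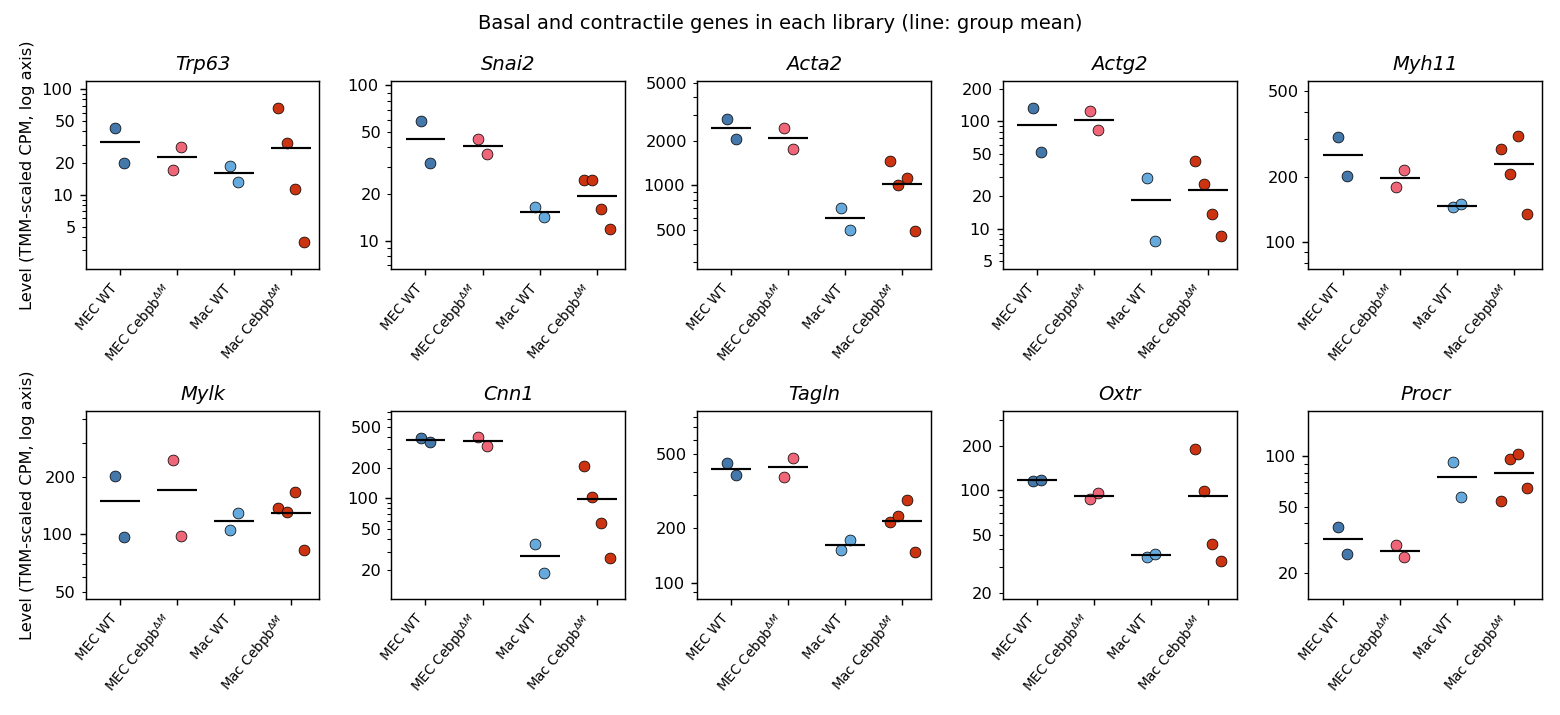
Level of each member (vertical log axis, TMM-scaled CPM) in each library by cell type and genotype, where points are libraries and lines are group means. In macrophages the CebpbΔM libraries of *Trp63* spread from 3.6 to 66.4 CPM around the WT libraries at 13.2 and 18.9 CPM.

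All 10 members had a log2 fold change above 0 between CebpbΔM and WT macrophages, and none passed the test. The sign of *Trp63*, *Actg2*, *Mylk* and *Procr* turned on leaving out single libraries. In this comparison edgeR's quasi-likelihood test called 0% of the 17772 genes tested, 8.63% had an unadjusted *P* under 0.05, and 1 member, *Cnn1*, was among these. The likelihood ratio test called 138 genes and DESeq2 201, with 0 members in either. The members' median log2 fold change was 0.51, against 0.004 over all genes tested. No member had separate genotypes, compared with 18.5% of all genes.

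*Trp63* was at 18.9 and 13.2 CPM in WT macrophage libraries 4 and 5, and at 66.4, 31.2, 11.3 and 3.6 CPM in CebpbΔM 4 to 7. CebpbΔM 4 stood above every MEC library and CebpbΔM 7 below every other library of the study. The log2 fold change of 0.79 (SE 0.92) became −0.08 without CebpbΔM 4. *Snai2* was at 16.5 and 14.2 CPM in WT and at 24.8, 24.8, 16.0 and 12 CPM in CebpbΔM 4 to 7, a log2 fold change of 0.32 (SE 0.34). CebpbΔM 4 and 5 lay above both WT libraries and CebpbΔM 7 below them.

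*Acta2* was at 705 and 498 CPM in WT macrophages and at 1462, 1012, 1126 and 487 CPM in CebpbΔM 4 to 7. Its log2 fold change was 0.74 (SE 0.39), with an adjusted *P* of 0.641 by edgeR's quasi-likelihood test. Of the 4 CebpbΔM libraries, 3 lay above both WT libraries and CebpbΔM 7 lay below them. *Actg2* was at 29.4 and 7.62 CPM in WT and at 42.7, 26.3, 13.7 and 8.59 CPM in CebpbΔM 4 to 7. Here the WT libraries spanned most of the CebpbΔM range, and the log2 fold change of 0.28 (SE 0.69) turned to −0.21 without CebpbΔM 4 and −0.39 without WT 5.

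*Myh11* was at 146 and 150 CPM in WT macrophages and at 270, 207, 310 and 136 CPM in CebpbΔM 4 to 7, a log2 fold change of 0.61 (SE 0.30, edgeR quasi-likelihood adjusted *P* = 0.617). *Tagln* was at 152 and 171 CPM in WT and at 215, 230, 282 and 148 CPM in CebpbΔM 4 to 7. *Mylk* was at 105 and 130 CPM in WT and at 138, 131, 167 and 82.8 CPM in CebpbΔM 4 to 7. In all 3 genes CebpbΔM 6 was highest, CebpbΔM 7 was lowest, and CebpbΔM 4 and 5 also exceeded both WT libraries.

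*Cnn1* was at 35.6 and 18.6 CPM in WT macrophages and at 205, 102, 57.5 and 26.1 CPM in CebpbΔM 4 to 7. It had the largest difference of the members, with a log2 fold change of 1.83 (SE 0.75), an unadjusted *P* of 0.0395 and an adjusted *P* of 0.556 by edgeR's quasi-likelihood test. CebpbΔM 4, 5 and 6 lay above both WT libraries, and CebpbΔM 7 between them. The log2 fold change was 1.17 without CebpbΔM 4.

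*Oxtr* was at 35.4 and 36.8 CPM in WT macrophages and at 191, 99.5, 43.2 and 32.9 CPM in CebpbΔM 4 to 7. The WT libraries were nearly equal, and the CebpbΔM libraries ran from just below them to above every MEC library. Its log2 fold change was 1.32 (SE 0.66, edgeR quasi-likelihood adjusted *P* = 0.623), and 0.67 without CebpbΔM 4. *Procr* was at 93.1 and 56.7 CPM in WT and at 54.2, 96.3, 104 and 64.3 CPM in CebpbΔM 4 to 7, a log2 fold change of 0.06 (SE 0.31). Unlike the other members, it was lowest in CebpbΔM 4. Its log2 fold change ranged from −0.25 to 0.46 with single libraries left out, and that of *Mylk* (0.12, SE 0.26) from −0.029 to 0.28.

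**Figure D3:**
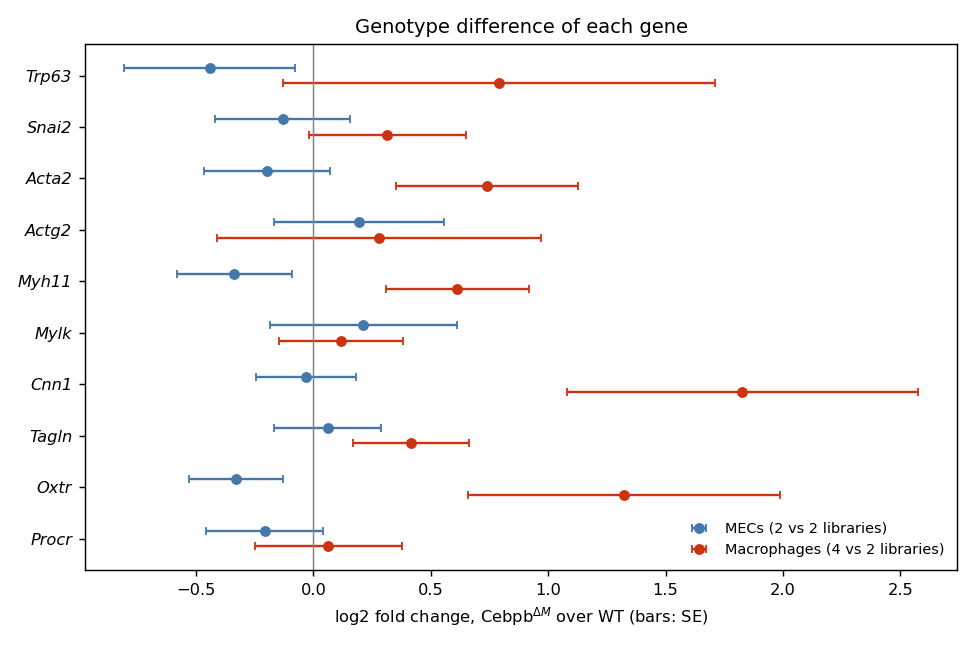
Log2 fold change of each member between CebpbΔM and WT (horizontal axis) in MECs and in macrophage libraries, with bars for the standard error. In macrophages all 10 estimates lie above 0, from 0.06 for *Procr* to 1.83 for *Cnn1*, and in MECs they lie between −0.44 and 0.21.

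Some members were highest in the same macrophage library as the basal keratins and others were not. No member had the full library order of *Krt5*, *Krt14* or *Krt17*. *Krt14*, a keratin of basal cells, was at 183 and 56.6 CPM in WT 4 and 5 and at 694, 366, 310 and 41.5 CPM in CebpbΔM 4 to 7, a log2 fold change of 1.53 (SE 0.92, edgeR quasi-likelihood adjusted *P* = 0.692). *Cnn1*, *Oxtr*, *Trp63*, *Actg2* and *Acta2*, like *Krt5*, *Krt14* and *Krt17*, were highest in CebpbΔM 4. *Snai2* was highest in CebpbΔM 5, with CebpbΔM 4 almost equal. *Myh11*, *Tagln*, *Mylk* and *Procr* were highest in CebpbΔM 6. So were the sums of the endothelial, adipocyte and skeletal muscle markers and of the 11 vascular mural markers. The adipocyte list summed to 405 to 1109 CPM in macrophage libraries, of which *Fabp4*, its highest gene, alone was at 400 to 1098 CPM. The mural sum ran from 458 to 1036 CPM in macrophages and from 132 to 194 CPM in MECs. CebpbΔM 4 had the lowest sums of mural and of endothelial markers and the second highest levels of *Myh11* and *Mylk*. *Rgs5*, a pericyte gene and the highest mural marker of the macrophage libraries, was at 221 to 463 CPM in macrophage libraries and 5.98 to 11.3 CPM in MECs. No mural or endothelial marker was at 0 in a macrophage library. Between the genotypes of the macrophage libraries, 11 of 11 macrophage markers had log2 fold changes above 0 (median 0.58), 7 of 7 luminal epithelial markers below 0 (median −0.62), and mural markers 5 above and 6 below (median −0.05), with none called. All 6 hormone-sensing luminal markers lay below 0 (median −0.55). The 4 skeletal muscle markers tested lay above 0, 3 of them with no overlap between the genotypes and at an unadjusted edgeR *P* under 0.05. The genotypes also did not overlap in 6 of 11 macrophage, 3 of 7 luminal and 1 of 11 mural markers, and 0 of 6 hormone-sensing markers. As many of each list had an unadjusted edgeR *P* under 0.05. Over all genes, 18.5% did not overlap and 8.63% were under 0.05. The skeletal muscle list of 5 genes summed to 30.3 and 17.5 CPM in WT 4 and 5 and to 55.0, 29.4, 74.0 and 43.5 CPM in CebpbΔM 4 to 7. The part of these other cells in the levels of the members was not tested.

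An interaction term in a fit of all 10 libraries asked whether genotype acted differently in macrophages and MECs. EdgeR's quasi-likelihood test called 0% of the 18323 genes tested, and 5.19% of them, with 1 member among these, had an unadjusted *P* under 0.05. The genotype effect was larger in macrophages than in MECs in 9 of 10 members, with a median log2 difference of 0.74 against 0.0397 over all genes. That member was *Myh11*, with a log2 difference of 1.0 (SE 0.45, edgeR quasi-likelihood adjusted *P* = 0.956). *Cnn1* followed with 1.90 (SE 0.93), *Oxtr* with 1.70 (SE 0.84) and *Acta2* with 0.98 (SE 0.55). *Trp63* (1.29, SE 1.25), *Snai2* (0.49, SE 0.51), *Tagln* (0.40, SE 0.36), *Procr* (0.32, SE 0.46) and *Actg2* (0.13, SE 0.98) also lay above 0, and *Mylk* lay at −0.06 (SE 0.59). The 3 keratins were at 1.59 (*Krt14*, SE 1.16), 1.28 (*Krt5*, SE 1.28) and 0.69 (*Krt17*, SE 1.0). These differences use the same libraries as both genotype comparisons.

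Set against MECs of the same genotype, the macrophage libraries had lower levels of 5 members and a higher level of 1. In WT, 6 of 10 members were called, compared with 25.5% of the 18323 genes tested, of which 5 were lower, compared with 10.7% of all genes, and 1 was higher, compared with 14.8%. *Cnn1* fell by 3.78 on the log2 scale (SE 0.77, edgeR quasi-likelihood adjusted *P* = 0.00446), *Acta2* fell by 2.03 (SE 0.43) and *Tagln* fell by 1.37 (SE 0.27). *Snai2* fell by 1.57 (SE 0.39) and *Actg2* fell by 2.31 (SE 0.77), the latter with an adjusted *P* of 0.0498 by the same edgeR test. *Procr* rose by 1.24 (SE 0.35, edgeR quasi-likelihood adjusted *P* = 0.0256). *Oxtr* (log2 fold change −1.70, SE 0.64), *Myh11* (−0.78, SE 0.34), *Trp63* (−0.99, SE 0.94) and *Mylk* (−0.34, SE 0.45) did not pass. In 9 of 10 members the WT libraries of the cell types did not overlap, compared with 65.1% of all genes, and *Mylk* was the exception.

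In CebpbΔM, 6 of 10 members were called, compared with 33.7% of all genes tested, of which 5 were lower (14.7% of all genes) and 1 was higher (18.9%). The cell types did not overlap in 6 of 10 members, compared with 52.9% of all genes. *Actg2* fell by 2.18 (SE 0.61), *Cnn1* fell by 1.88 (SE 0.57), *Snai2* fell by 1.08 (SE 0.32), *Acta2* fell by 1.05 (SE 0.34) and *Tagln* fell by 0.96 (SE 0.23). *Procr* rose by 1.55 (SE 0.32, edgeR quasi-likelihood adjusted *P* = 0.00376). These 6 genes are those called in WT as well. The remaining members had log2 fold changes of 0.30 (*Trp63*, SE 0.82), 0.22 (*Myh11*, SE 0.29), 0.00 (*Oxtr*, SE 0.54) and −0.40 (*Mylk*, SE 0.38).

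**Figure D4:**
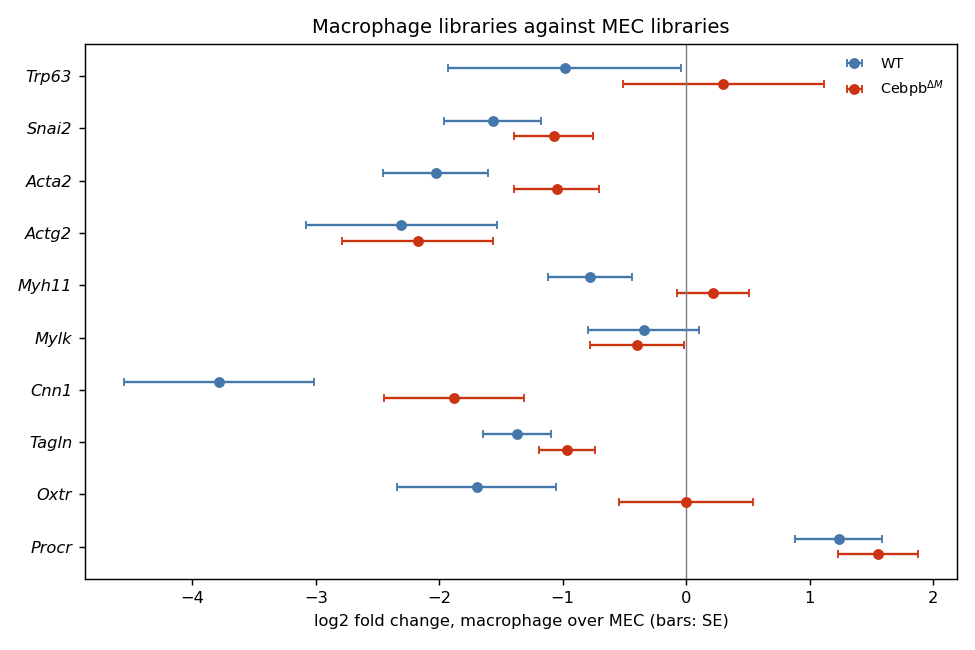
Log2 fold change of each member between macrophage and MEC libraries (horizontal axis) in WT and in CebpbΔM, with bars for the standard error. *Cnn1* lies farthest below 0 in WT at −3.78, and *Procr* lies above 0 in both genotypes at 1.24 and 1.55.

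Several of these calls rested on single libraries. *Cnn1* and *Tagln* in WT and *Procr* in CebpbΔM passed under every alternative run. In WT, *Acta2* lost its call without macrophage WT 5 (edgeR adjusted *P* = 0.0582). *Snai2* lost it without MEC WT 1 (0.131) or macrophage WT 5 (0.0906), and *Procr* without MEC WT 1 (0.0509), MEC WT 3 (0.180) or macrophage WT 4 (0.126). *Actg2* lost it without any of 6 libraries (MEC WT 1 or 3, MEC CebpbΔM 1 or 3, macrophage WT 5 or macrophage CebpbΔM 5), with edgeR adjusted *P*-values from 0.0563 to 0.287. *Oxtr*, by contrast, passed without macrophage CebpbΔM 4 (0.0158) or CebpbΔM 7 (0.0395), which enter the fit through the shared dispersion. The count of called members in WT was 3 without MEC WT 1 and 3 without macrophage WT 5. In CebpbΔM it dropped to 2 without MEC CebpbΔM 1, to 2 without MEC CebpbΔM 3 and to 3 without macrophage CebpbΔM 6. The MEC and macrophage libraries also differed in isolation and depth, and these cannot be told apart from cell type.

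Expressed as a percentage of the WT MEC mean, the levels of the members in the macrophage libraries differed widely. Of the keratins, *Krt14* was at 1.85% to 30.9%, *Krt17* at 1.54% to 14.9% and *Krt5* at 2.15% to 46.6% over the 6 libraries. *Cnn1* was at 4.99% to 55.0%, *Actg2* at 8.32% to 46.6% and *Acta2* at 19.8% to 59.5%. *Tagln* was at 35.5% to 67.7%, *Myh11* at 53.3% to 122% and *Mylk* at 55.6% to 112%. *Trp63* spanned 11.4% to 209% and *Oxtr* 28.0% to 163%, whereas *Procr* exceeded the MEC mean in all 6 libraries, at 170% to 326%.

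**Figure D5:**
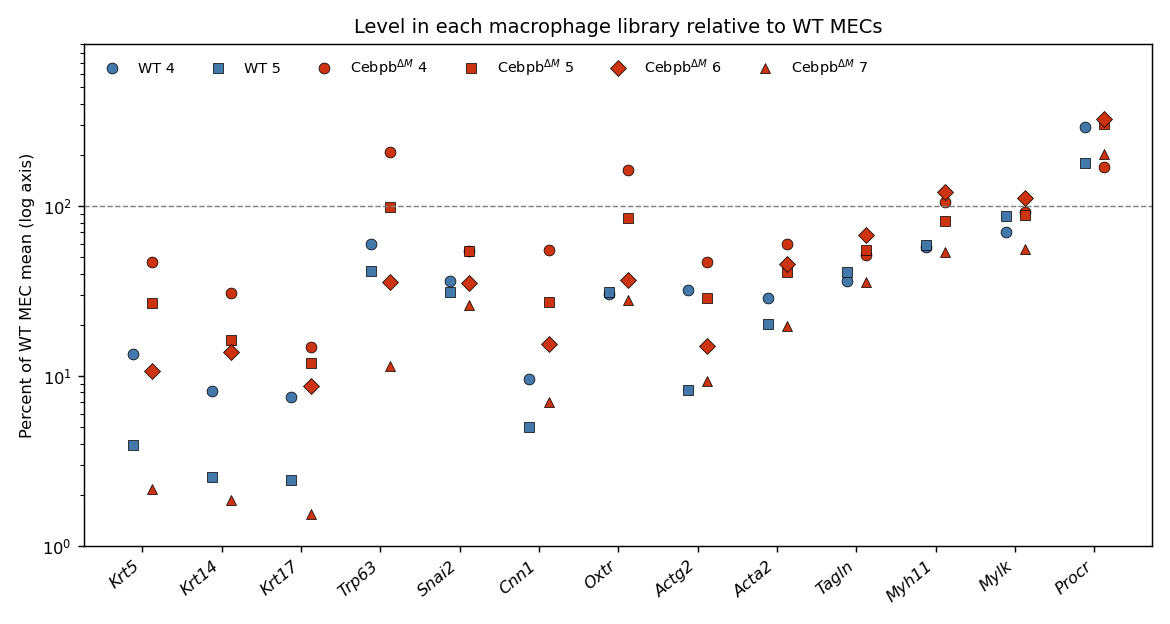
Level in each macrophage library as a percentage of the WT MEC mean (vertical log axis) for 3 basal keratins and the 10 members, where the dashed line marks 100%. *Krt17* reached at most 14.9%, and *Procr* lay above the line in all 6 libraries.

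Ratios within a library do not depend on its depth. *Cnn1* stood to *Krt14* at 0.163 to 0.167 in the 4 MEC libraries and at 0.186 to 0.630 in the 6 macrophage libraries. For *Acta2* to *Krt14* the ratio was 0.902 to 1.23 in MECs and 2.11 to 11.7 in macrophages, and for *Oxtr* to *Krt14* it was 0.0361 to 0.0543 and 0.139 to 0.792. *Myh11* to *Krt14* was 0.0749 to 0.132 in MECs and 0.389 to 3.27 in macrophages. In these 4 ratios every macrophage library lay above every MEC library, as it did for *Tagln*, *Mylk*, *Snai2* and *Procr* to *Krt14*. The shared denominator *Krt14* was itself at 1.85% to 30.9% of the WT MEC mean in macrophages. *Actg2* to *Krt14* overlapped, at 0.0238 to 0.0568 in MECs and 0.0443 to 0.207 in macrophages. *Trp63* to *Krt14* did not overlap, at 0.00711 to 0.0187 in MECs and 0.0364 to 0.233 in macrophages. Within the keratins, *Krt5* to *Krt14* overlapped between the cell types, at 0.116 to 0.166 in MECs and 0.105 to 0.223 in macrophages. *Krt17* to *Krt14* did not, at 0.675 to 0.83 in MECs and 0.328 to 0.658 in macrophages, where every library lay below every MEC library. Against markers of other cells, *Myh11* to *Rgs5* was 19.0 to 40.1 in MECs and 0.404 to 1.22 in macrophages, and *Procr* to *Pecam1*, an endothelial gene, was 0.511 to 0.781 and 0.101 to 0.185.

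The other genes of the basal program were given by a list of 29 keratins, adhesion and basement membrane genes and regulators, and those of contraction by a list of 30 genes, of which 29 could be assigned to a single gene ID. In MECs 0 of 28 tested basal genes and 0 of 29 contractile genes passed edgeR's quasi-likelihood test between the genotypes, compared with 0.051% of all genes. In the same test 2 and 1 had an unadjusted *P* under 0.05, compared with 5.42% of all genes. *Lgr6*, a receptor of Wnt-potentiating R-spondins, had the smallest *P* of the basal list, at 60.2 ± 4.68 CPM in WT and 103 ± 3.80 CPM in CebpbΔM (SD, n = 2, log2 fold change 0.79, edgeR adjusted *P* = 0.255). *Krt15* was at 184 ± 88.2 and 340 ± 87.5 CPM. Of the contractile list, *Synpo2*, an actin-binding protein of muscle, was at 18.4 ± 2.30 CPM in WT and 10.4 ± 1.18 CPM in CebpbΔM (log2 fold change −0.80, edgeR adjusted *P* = 0.499).

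In macrophages 0 of 28 basal and 0 of 29 contractile genes passed the same edgeR test between the genotypes, as 0% of all genes did. Here 1 and 3 had an unadjusted *P* under 0.05, compared with 8.63% of all genes. Median log2 fold changes were 0.11 and 0.12, against 0.51 for the members. *Tpm2*, a tropomyosin, was at 74.1 ± 13.7 CPM in WT (SD, n = 2) and 134 ± 27.6 CPM in CebpbΔM (SD, n = 4), with a log2 fold change of 0.83 (SE 0.24, edgeR adjusted *P* = 0.484). *Myl9*, a regulatory myosin light chain, was at 325 ± 37.3 and 475 ± 96.4 CPM. *Itgb4*, the integrin of hemidesmosomes, lay in the other direction at 103 ± 3.0 and 77.4 ± 8.41 CPM, with a log2 fold change of −0.43 (SE 0.16, edgeR adjusted *P* = 0.536). *Actn1*, an actin crosslinker, had a log2 fold change of −0.47 (SE 0.20).

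Between the cell types, the shares of all genes called stand above (25.5% in WT and 33.7% in CebpbΔM). By direction, 10.7% were lower and 14.8% higher in WT, and 14.7% lower and 18.9% higher in CebpbΔM. Of 29 basal genes, 15 were called in WT, 11 lower and 4 higher in macrophage libraries, and 14 in CebpbΔM, 10 lower and 4 higher. *Krt17* fell by 4.33 (SE 0.86) in WT and fell by 3.64 (SE 0.64) in CebpbΔM. *Krt14* fell by 4.23 (SE 0.98) and by 2.64 (SE 0.72), and *Krt5* fell by 3.53 (SE 1.05) and by 2.25 (SE 0.79). The 4 higher genes in each genotype were *Vim*, *Snai1*, *Thy1* and *Jag2*, genes that stromal, endothelial or blood cells also express. With 4 of 29 in each genotype, the share of basal genes called higher did not exceed that over all genes. Counts this small cannot tell a lower share from an equal one. Of 29 contractile genes, 11 were called in WT, 9 lower and 2 higher, and 15 in CebpbΔM, 10 lower and 5 higher. With 2 of 29 in WT and 5 of 29 in CebpbΔM, the share of contractile genes called higher also did not exceed that over all genes (14.8% and 18.9%). *Tpm2* fell by 2.56 (SE 0.29) in WT and by 1.57 (SE 0.23) in CebpbΔM. *Des*, the desmin of muscle and pericytes, rose by 1.73 (SE 0.41) and by 2.21 (SE 0.38), and *Gnaq*, the G protein that couples the oxytocin receptor to phospholipase C, rose by 0.83 (SE 0.19) and by 0.99 (SE 0.17). Over the same comparisons, 10 of 11 mural markers and 11 of 11 endothelial markers were higher in macrophage libraries in each genotype, and 7 of 7 luminal markers were lower.

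The genes whose levels ran closest to *Acta2* over all 10 libraries, by Pearson's r of log2 CPM, were *Krt14* (0.981), *Gm21149* (0.975), *Usp14* (0.975), *Tpm1* (0.972) and *Fmod* (0.970), and *Cnn1* came sixth of 18322 genes at 0.970. Over the 6 macrophage libraries they were *Virma* (0.994), *Gm16174* (0.982), *Ntf5* (0.981), *Ncoa7* (0.980) and *Gm47112* (0.979), with *Krt14* sixth of 18308 genes at 0.977. *Rgs5* was at −0.16 over these 6 libraries. For *Trp63* the closest over 10 libraries were *Col11a1* (0.952), *Micall2* (0.940), *Reln* (0.940), *Capn6* (0.938) and *Lama1* (0.929), and over the 6 macrophage libraries *Emid1* (0.992), *Lamb3* (0.992), *Mfap3l* (0.992), *Tgif2* (0.989) and *Ccp110* (0.989). Among the members, *Snai2* ran closest to *Trp63* in the 6 macrophage libraries at 0.928 and *Procr* least at −0.08. The values over 10 libraries span 2 preparations. *Acta2* was at 1779 to 2851 CPM in MECs and 487 to 1462 CPM in macrophage libraries. *Krt14* was at 1972 to 2418 CPM and 41.5 to 694 CPM. The 6 macrophage libraries share a preparation, and all libraries share a normalization. With so few libraries, many of the genes compared reach values this high.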

How the data were processed

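RNA-seq counts of 4 MEC and 6 macrophage libraries were used. The authors prepared low-input libraries, trimmed the reads with Trimmomatic, mapped them to GRCm38 with HISAT2 and counted read pairs on Ensembl release 100 genes with featureCounts (version 1.6.2, mapping quality of at least 10, reverse strand). The deposited values are raw counts per gene. Genes of at least 300 nt with over 1 CPM in at least 2 libraries were kept, scaled by TMM and tested by quasi-likelihood in edgeR (version 4.0.16, under R version 4.3.3). *P*-values were adjusted by Benjamini–Hochberg across every gene in the fit, and genes at 0.05 or less were called. The likelihood ratio test that the study used was run as an alternative, as were DESeq2 (version 1.42.0), RLE, filterByExpr, no filter, the replicate number as a block, 1 fit of all libraries, and each library left out. Genotypes were compared within each cell type, and the interaction and the cell type differences came from 1 fit of 18323 genes. Levels are CPM scaled by TMM factors of all 10 libraries, RPKM divides them by the exon length in the count tables, and correlations used log2(CPM + 1). A level of 3 counts, 0.111 to 0.177 CPM, is the limit of detection for counting error only. The tests were checked on simulated counts. Symbols came from GENCODE M21, which matched 55141 of the 55487 gene IDs, and 145 of 146 list genes matched a single ID. The labels do not say whether libraries came from separate mice, so *P*-values measure only the spread between these libraries. The members and lists were chosen with earlier results of these data known. All members were named in each comparison, with the leading gene of a marker list, *Krt5*, *Krt14* and *Krt17* and, from the 2 other gene lists, examples among the 3 smallest *P*-values in each direction. *Adgre1* and *Jag2* were named outside this rule, after their values were seen.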

Additional observations from a re-analysis of the deposited data

How the results depend on the processing

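Same-numbered libraries of the 2 genotypes deviated from their group means with a Pearson's r of 0.096 in MECs. In macrophages r was 0.194 (number 4) and −0.112 (number 5). With 2 libraries in each MEC group the deviations mirror each other, so both MEC pairs give the same value. Fewer than 3 pairs cannot show whether same-numbered libraries share more than a number, and the labels give only the number. With the replicate number as a block, 205 genes were called in MECs (8 without it), 12 in macrophages (0 without it) and 1 in the interaction (0 without it). The members called were 0, 1 and 0, the 1 being *Cnn1* in macrophages. Its log2 fold change with the block was 2.47, with an edgeR adjusted *P* of 0.0149 (0.0149 to 0.811 under all its alternatives). CebpbΔM 6 and 7 have no same-numbered WT macrophage library, so with the block they add nothing to the macrophage genotype difference. That difference rests on numbers 4 and 5 alone. It leaves out CebpbΔM 7, whose *Cnn1* level of 26.1 CPM lay between those of WT 4 and 5 (35.6 and 18.6 CPM). The block turned *Procr* in macrophages to −0.031 and *Mylk* in the interaction to 0.054. No paired analysis was possible because the MEC and macrophage libraries share no replicate numbers, as far as the cell type comparisons are concerned.

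The count over all genes moved with the test. In MECs it was 179 with the likelihood ratio test, 161 with DESeq2, 38 with no filter and 0 in 1 fit of all 10 libraries, and 2 (without WT 3) to 337 (without CebpbΔM 3) with each library left out. In macrophages it was 138 and 201 with these 2 tests, and in the interaction 53 and 28, with 0 to 1 on leaving out libraries. The causes were not tested. In the cell type comparisons, leaving out a library gave 3 to 7 members and 2456 to 4846 genes in WT, and 2 to 6 members and 3496 to 6556 genes in CebpbΔM. The member counts of 0 in both genotype comparisons and the interaction otherwise held under every alternative run. *Oxtr* passed in WT with the likelihood ratio test (adjusted *P* = 0.0305), and *Actg2* did not with filterByExpr (0.0507).

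Leaving out each library turned the sign of some uncalled members. The MEC genotype log2 fold changes ranged from −0.89 to 0.21 for *Trp63*, −0.49 to 0.38 for *Snai2*, −0.42 to 0.040 for *Acta2*, −0.15 to 0.073 for *Cnn1*, −0.43 to 0.075 for *Procr*, −0.31 to 1.0 for *Actg2*, −0.56 to 0.82 for *Mylk* and −0.15 to 0.24 for *Tagln*. In macrophages they ranged from −0.029 to 0.28 for *Mylk*, −0.39 to 1.56 for *Actg2*, −0.25 to 0.46 for *Procr* and −0.082 to 1.15 for *Trp63*. The interaction ranged from −0.029 to 0.87 for *Snai2*, −0.69 to 1.38 for *Actg2*, −0.68 to 0.75 for *Mylk* and −0.031 to 0.68 for *Procr*. Between cell types the ranges were −0.78 to 0.27 for *Mylk* in WT, and −0.56 to 0.71 for *Trp63*, −0.91 to 0.40 for *Mylk* and −0.64 to 0.29 for *Oxtr* in CebpbΔM.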
